A study of Mus musculus with 6 samples.

Results

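The 38 Hox genes described here sit in 4 clusters of the mouse genome and were taken as every protein-coding gene on mm10 whose symbol is Hox, a cluster letter from a to d and a number. The rule matches 39 genes, of which 38 are described by name, out of 21627 protein-coding genes. Around each cluster, a window from 50 kb before the first gene to 50 kb after the last was searched, and these windows held 411 of 882758 accessible regions of the series. Hoxa (10 named genes) lies on chromosome 6 from 52155367 to 52260880, Hoxb (10 genes) on chromosome 11 from 96194316 to 96368254, Hoxc (9 genes) on chromosome 15 from 102921131 to 103036856 and Hoxd (9 genes) on chromosome 2 from 74668225 to 74765142. Hoxa genes are read from the minus strand and the others from the plus strand.

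The samples were long-term haematopoietic stem cells of young and aged C57BL/6 mice, 3 per age, profiled by ATAC-seq, an assay that maps open chromatin by where a transposase can insert. These marrow cells renew themselves and give rise to all blood lineages; here they were sorted as Lin-ckit+sca1+Flk2-Cd34- cells and all were kept overnight at 3% oxygen in HBSS with serum before profiling. Each sample has 1 deposited list of peaks, named below by age and replicate (aged 1 to aged 3, young 1 to young 3). The labels give no age in weeks or months and no sex, nor do they tie each sample to its own animal, so any p-value reflects the spread of these samples alone, possibly a technical one. A gene was called in a list when a peak overlapped the 1 kb on either side of its start or of its end by at least 1 bp. Peak strength is given as a percentile, the rank of a peak's deposited -log10 p among all peaks of its own list, with 100 the strongest.

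Hox genes encode homeodomain transcription factors that give cells their position along the body axis and limbs. Within a cluster the genes stand in the order in which they are switched on from head to tail, low paralogue numbers at one end and high numbers at the other, and genes with the same number in different clusters are close relatives. In blood stem cells, members of the Hoxa and Hoxb clusters are known for their part in self-renewal, Trithorax proteins such as Kmt2a keep Hox genes active, and Polycomb proteins silence them.

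The clusters also hold miRNA genes, and their mature sequences are shown because miRNAs of different clusters share a seed, as the Hox genes beside them share a paralogue number. Capitals mark the seed, bases 2 to 8, in the RefSeq mature sequences (build GRCm38.p6, which mm10 names).
miR-196a-5p: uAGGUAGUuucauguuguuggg
miR-196b-5p: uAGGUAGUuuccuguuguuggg
miR-10a-5p: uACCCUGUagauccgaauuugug
miR-10b-5p: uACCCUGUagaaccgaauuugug
Within 1 kb of its ends, Mir196b, which lies between Hoxa9 and Hoxa10, was called in 3 aged and 2 young lists. Of the genes with the miR-196a sequence, Mir196a-1 near Hoxb9 had a call in 1 aged list, and Mir196a-2 near Hoxc10 had 1 at each age. Mir10a beside Hoxb4 was called in 0 lists and Mir10b beside Hoxd4 in 1 aged list. Mir10a ends at chr11:96317274, just over 1 kb before a region called in all 6 lists, chr11:96318325-96318955, so its 0 depends on the window. Genes with the miR-196 seed were called in 1 to 5 lists, and those with the miR-10 seed in 0 or 1. The difference between the seeds was not tested, and the share of all miRNA genes called was not counted.

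Promoter windows are shown for 4 genes, since CpG content and calls parted among Hox promoters: Hoxa3 and Hoxa13 were the promoters called in the most lists, Hoxa6 was CpG-rich and called in 0 lists, and Hoxb4 was called in 0 lists although the region just after it was called in all 6. Each window runs 5′ to 3′ from 250 bases before to 50 after the annotated start (RefSeq, GRCm38.p6), and capitals mark CG dinucleotides.
Hoxa3, chr6:52213018-52213317, minus strand: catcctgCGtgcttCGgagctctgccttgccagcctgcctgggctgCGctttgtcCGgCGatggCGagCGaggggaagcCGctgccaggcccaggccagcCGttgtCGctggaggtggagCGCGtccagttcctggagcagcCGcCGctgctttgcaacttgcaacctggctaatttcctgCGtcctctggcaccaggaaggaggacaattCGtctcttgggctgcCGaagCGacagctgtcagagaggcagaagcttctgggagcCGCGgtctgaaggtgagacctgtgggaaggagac
Hoxa13, chr6:52260831-52261130, minus strand: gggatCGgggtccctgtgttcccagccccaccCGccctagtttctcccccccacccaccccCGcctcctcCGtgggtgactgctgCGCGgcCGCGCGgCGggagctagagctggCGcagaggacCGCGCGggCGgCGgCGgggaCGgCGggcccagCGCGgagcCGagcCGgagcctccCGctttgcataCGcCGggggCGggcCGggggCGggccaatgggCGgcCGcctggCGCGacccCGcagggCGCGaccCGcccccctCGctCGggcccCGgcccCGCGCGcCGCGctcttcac
Hoxa6, chr6:52208623-52208922, minus strand: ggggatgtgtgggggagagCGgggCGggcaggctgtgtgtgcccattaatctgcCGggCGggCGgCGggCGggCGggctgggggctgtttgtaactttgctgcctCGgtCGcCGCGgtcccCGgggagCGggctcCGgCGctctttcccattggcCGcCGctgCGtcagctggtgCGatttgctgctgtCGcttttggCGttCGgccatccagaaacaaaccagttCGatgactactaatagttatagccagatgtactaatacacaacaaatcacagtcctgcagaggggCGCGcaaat
Hoxb4, chr11:96318017-96318316, plus strand: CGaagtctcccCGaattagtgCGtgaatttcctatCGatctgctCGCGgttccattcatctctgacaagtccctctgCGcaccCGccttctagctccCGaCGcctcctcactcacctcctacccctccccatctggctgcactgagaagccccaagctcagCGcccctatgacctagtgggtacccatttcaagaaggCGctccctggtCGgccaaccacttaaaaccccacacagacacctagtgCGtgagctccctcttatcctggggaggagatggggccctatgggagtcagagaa
The CpG ratio, the observed count of CG over that given by the C and G content, was 0.657 in the Hoxa3 window, 0.918 in Hoxa13, 0.923 in Hoxa6 and 0.593 in Hoxb4. The Hoxa13 window had calls in 3 aged and 2 young lists, the Hoxa3 window in 2 and 2.

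Facts of the series that bear on all values are these. The lists held 110596 to 263956 distinct peaks, their median fold enrichment ranged from 1.92 to 3.27, and read depth is not given in the sources used here. The count of Hox genes called did not follow the length of the list: aged 2, with 129137 peaks, called 25, and young 2, with 254869, called 17. Young 2 stood apart in carrying only 200 distinct values of -log10 p, against 2302 to 17537 in the others, so its percentiles are coarse and many are ties. For the sorted cells, Kit, Procr and Hlf were called in all 6 lists, and Cd34 and Flt3 (Flk2), which the sort selects against, in 5 and 4. Of 16 markers of other marrow cells, 2 (Mpo and Pf4) were called in all 6 lists. The part of other cells in the Hox calls was not tested.

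Gene by gene, the Hoxa and Hoxb clusters were called in more lists than Hoxc and Hoxd. The 20 Hoxa and Hoxb genes were called in a median of 5 lists and the 18 Hoxc and Hoxd genes in a median of 2; over all protein-coding genes the median was 5. Hoxa genes were called 9, 8 and 5 times in aged 1 to 3 and 7, 5 and 9 times in young 1 to 3, and Hoxb genes 7, 9 and 6 times and 8, 8 and 7 times. Hoxc genes were called 3, 5 and 3 times in the aged and 4, 2 and 3 times in the young lists, and Hoxd genes 3, 3 and 3 times and 5, 2 and 2 times. In each list, 11 to 17 of the 20 Hoxa and Hoxb genes and 4 to 9 of the 18 Hoxc and Hoxd genes were called, and these ranges do not overlap. As shares per list they were 55 to 85% and 22.2 to 50%, beside 53.1 to 69.7% of all protein-coding genes. The ranges of counts overlapped at a -log10 q of at least 1.3 (5 to 16 against 1 to 8) and among the strongest 100000 peaks of each list (4 to 16 against 3 to 8). At least 5 lists called 5 Hoxa genes, 6 Hoxb genes, 0 Hoxc genes and 1 Hoxd gene, Hoxd9. As shares these were 50%, 60%, 0% and 11.1%, beside 50.2% of all genes.

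**Figure D1:**
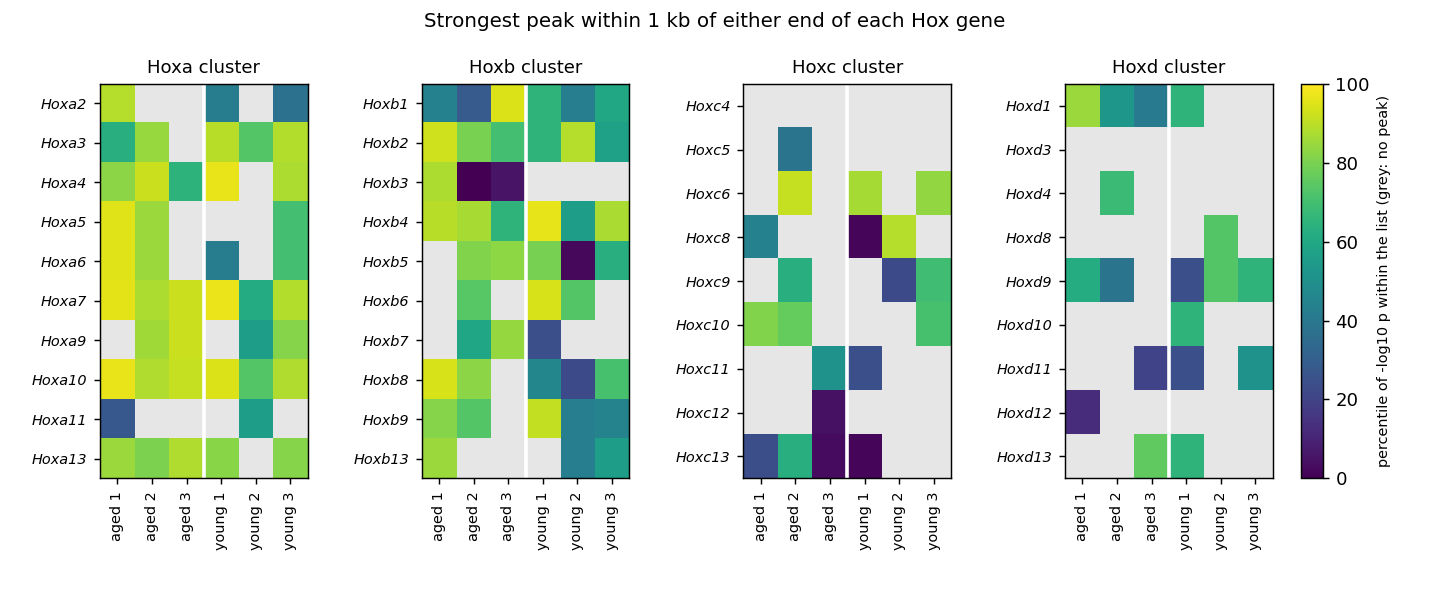
Percentile of the strongest peak (colour, 0 to 100) within 1 kb of either end of each of the 38 Hox genes (rows, by cluster and paralogue number) in the 3 aged and 3 young lists (columns); grey means no peak. Hoxa and Hoxb rows are mostly filled and Hoxc and Hoxd rows mostly grey, at both ages.

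All 6 lists called 5 of the 38 Hox genes, or 13.2%, against 35.1% of all protein-coding genes: Hoxa7, Hoxa10, Hoxb1, Hoxb2 and Hoxb4. No list called Hoxc4 or Hoxd3, 2 of 38, against 12.1% of all genes. The other 31 Hox genes were called in 1 to 5 lists. Without young 2, the other lists shared 7 genes, with Hoxa4 and Hoxa13 added; without aged 3 they shared 9.

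Hoxa10, a regulator of myeloid progenitors, was at percentiles 96.7, 88.0 and 91.1 in aged 1 to 3 and 94.6, 73.1 and 88.1 in young 1 to 3. Its calls came from both ends, 5 lists at the start and 5 at the other end. Hoxa7 had 95.9, 87.6 and 92.1 in the aged and 97.2, 61.5 and 88.6 in the young lists. In 5 lists the Hoxa7 call lay inside the gene, in chr6:52217420-52217728, 845 to 1153 bp after the start, while young 2 called the other end of the gene. A gene's call in 6 lists can therefore hold different peaks.

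Hoxb4, known to expand stem cells when overexpressed, stood at 89.2, 86.8 and 65.0 in the aged and 96.4, 55.6 and 87.3 in the young lists. It was the only Hox gene whose start side was called in all 6 lists. Hoxb2, a hindbrain gene, had 92.8, 79.9 and 70.2 in the aged and 65.0, 88.8 and 57.3 in the young lists. Hoxb1, also a hindbrain gene, had 44.1, 28.6 and 94.8 and then 65.0, 42.7 and 59.6. For Hoxb1 and Hoxb2 the called peaks lay at different positions, on the start side in 5 lists each and on the end side in 2 and 3.

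Of the rest of Hoxa, Hoxa4 and Hoxa13 were missing only from young 2, and Hoxa3, whose annotated span also holds Hoxa4, Hoxa5 and Hoxa6, only from aged 3. Hoxa4 stood at 82.5, 92.1 and 64.6 in aged 1 to 3 and at 96.5 and 87.8 in young 1 and young 3. Hoxa13, a gene of distal limb and urogenital tract, had 84.9, 80.3 and 88.2 in the aged and 82.2 and 81.7 in young 1 and young 3. Hoxa9, a stem and progenitor cell regulator and partner of Meis1, was called in 4 lists. It stood at 85.6 and 91.8 in aged 2 and aged 3 and at 55.6 and 81.9 in young 2 and young 3. Aged 1 and young 1, counted as uncalled, had peaks at 97.7 and 95.4 just outside its 1 kb windows. Hoxa5 and Hoxa6 are neighbours and shared 1 peak, at 94.9 in aged 1, 85.1 in aged 2 and 70.0 in young 3. Hoxa6 had in addition a peak at 42.1 in young 1. Hoxa2, a gene of the branchial arches, had calls in 1 aged and 2 young lists, and Hoxa11, a limb and uterus gene, in 1 and 1.

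In Hoxb, Hoxb5, used elsewhere as a marker of long-term stem cells, had calls in 2 aged lists and all young lists. Its percentiles were 81.0 and 83.0 in aged 2 and aged 3 and 79.4, 1.97 and 63.3 in young 1 to 3, so the young 2 peak was among the weakest of its list. Hoxb8 and Hoxb9 were each called in 2 aged and 3 young lists, Hoxb8 at 22.3 to 94.1 and Hoxb9 at 42.7 to 90.9. Hoxb6 was called at 73.8 in aged 2 and at 94.1 and 73.1 in young 1 and young 2. Hoxb13 had calls in 1 aged and 2 young lists, and Hoxb7 in 2 aged lists and 1 young list.

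In Hoxc, 0 genes were called in more than 4 lists. Hoxc6 was called at 91.4 in aged 2 and at 86.5 and 83.8 in young 1 and young 3. Hoxc8 and Hoxc9, genes of the trunk, were each called in 1 aged and 2 young lists, and Hoxc10 in 2 aged lists and 1 young list. Hoxc11 was called in 1 list per age. Hoxc5 and Hoxc12 were called in 1 aged list each, at 38.4 and 4.39.

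In Hoxd, Hoxd9 was called in 2 aged and 3 young lists at percentiles of 24.3 to 73.1. The genes of limb and digit formation were called in few lists: Hoxd10 in 1 young list, Hoxd11 in 1 aged and 2 young, Hoxd12 in 1 aged list at 12.9 and Hoxd13 in 1 per age. Hoxd4 was called in aged 2 alone, at 68.3, and Hoxd8 in young 2 alone, at 73.1. Hoxd3, called at neither end, held peaks along its length. A region called in 2 lists per age, chr2:74749296-74749685, lay 1025 bp past its end, just outside the 1 kb window.

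By paralogue number, the 11 genes with numbers 1 to 4 were called in a median of 4 lists. The medians were 3 for the 11 genes with 5 to 8 and 3 for the 16 genes with 9 to 13, beside 5 for all protein-coding genes. The 4 genes numbered 9 had a median of 4.5 lists, near that of all genes, and both genes numbered 12 were called in 1. The 4 genes numbered 4 spread from Hoxb4 (6 lists) and Hoxa4 (5) to Hoxd4 (1) and Hoxc4 (0).

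**Figure D2:**
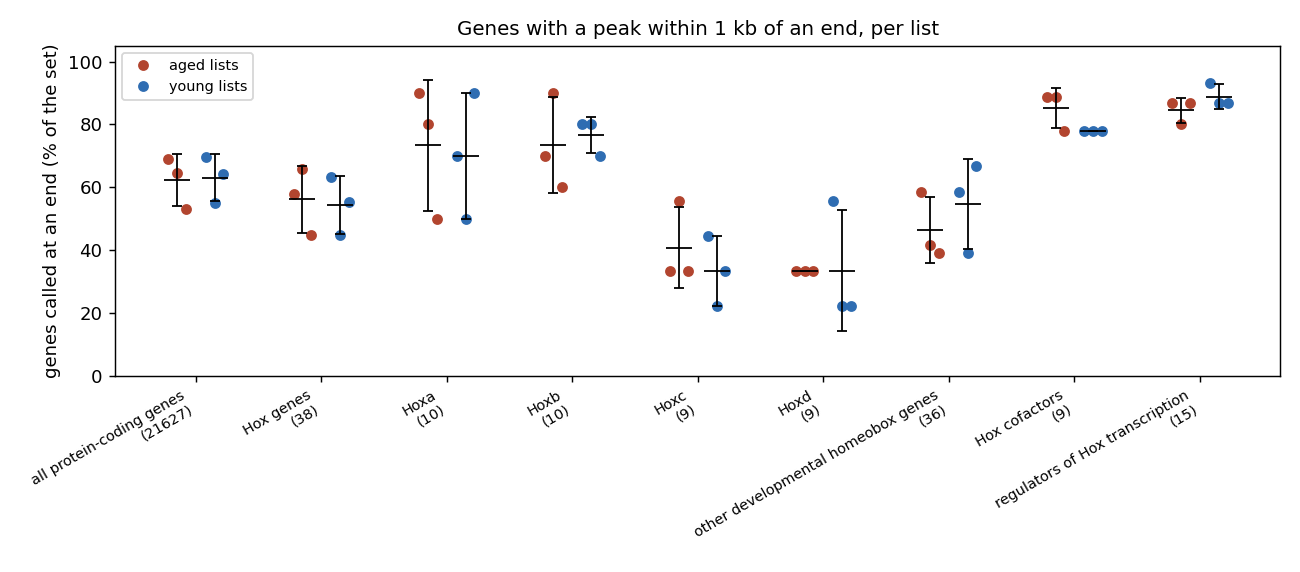
Share of each gene set with a peak within 1 kb of an end (vertical axis, percent of the set, number of genes in brackets), per aged (red) and young (blue) list, with the mean and SD of 3 lists in black. Hoxa and Hoxb lie at 50 to 90% and Hoxc and Hoxd at 22.2 to 55.6%.

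The second question was whether aged and young lists differed over the clusters. Aged lists called 22, 25 and 17 Hox genes (21.3 ± 4.04, SD, n = 3) and young lists 24, 17 and 21 (20.7 ± 3.51, SD, n = 3). The difference of 0.667 genes was smaller than either SD. The shares of all protein-coding genes called were 69.1, 64.6 and 53.1% in the aged and 69.7, 55.0 and 64.3% in the young lists. Titles carry an unexplained number after exp, shared by 1 aged and 1 young list each: aged minus young was -2 genes for exp 2, -4 for exp 3 and 8 for exp 5, with 1 list per age in each. The sign was not the same across these pairs. A further unexplained number opens each title, 10000, 2500 and 5000 for aged 1 to 3, lower than 2500 for young 1, and 2500 and 5000 for young 2 and young 3. It differed within the exp 2 pair and was equal within the others; its part in the calls was not tested.

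Of the 38 genes, 1 was called in all 3 aged and 0 young lists, against 0.208% of all genes, and 0 were called in all 3 young and 0 aged lists, against 0.287%. The 1 gene was Hoxb3, a hindbrain and blood progenitor gene. Its peaks lay beyond the end of the gene at percentiles 87.6, 0.328 and 5.32 in aged 1 to 3, with -log10 q of 2.42, 0.309 and 0.552. In aged 1 and aged 2 they overlapped (chr11:96348305-96348533 and chr11:96348283-96348523), while the aged 3 peak was elsewhere (chr11:96348785-96348934). So 2 of the 3 calls were among the weakest of their lists, and they did not mark 1 shared region. With 2.5 kb windows Hoxb3 reached 3 aged and 2 young lists, and at a -log10 q of at least 1.3 in 1 aged list.

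A difference of at least 2 lists was seen for 3 genes, all with more aged lists: Hoxb3, Hoxc13 (3 aged, 1 young) and Hoxd1 (3 aged, 1 young). Over all genes, 2.46% had at least 2 more aged and 3.80% at least 2 more young lists. Hoxc13, a gene of hair and nails, was at percentiles 23.9, 62.5 and 2.84 in the aged lists and 1.26 in young 1. Hoxd1, a gene of sensory neurons, was at 84.9, 53.1 and 41.7 in the aged lists and 65.0 in young 1. With 2.5 kb windows Hoxc13 was called in 3 aged and 2 young lists, Hoxd1 kept 3 and 1, and 2 genes had at least 2 more young lists, Hoxa2 (1 aged, 3 young) and Hoxd10 (0 aged, 3 young). These counts carry no test over the members.

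Peaks covered 3.41, 2.55 and 1.73% of the 4 windows in aged 1 to 3 and 3.03, 2.71 and 2.19% in young 1 to 3. All protein-coding genes with 50 kb on either side had 2.501, 1.86 and 1.31% covered in aged and 2.72, 2.54 and 1.63% in young lists. So in each list the sum of the 4 Hox windows was covered more densely. Aged minus young was -0.0788 percentage points (2.57 ± 0.843 against 2.64 ± 0.428, SD, n = 3), smaller than either SD. By cluster, the Hoxa and Hoxb windows lay above the share near all genes in every list. The Hoxc window lay below that share in aged 3, young 2 and young 3 (0.670, 2.07 and 1.13%) and above it elsewhere. The Hoxd window lay below it in aged 2 (1.18%) and in young 1 to 3 (2.32, 2.36 and 1.05%). In aged 1 and aged 3 the Hoxd window lay above it.

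Region by region, Hoxa and Hoxb again held most of the recurrent peaks. Of 411 regions, 327 (79.6%) were called in a single list, against 85.2% of all regions. At least 5 lists called 12 Hox regions, or 2.92%, against 2.15% of all regions, and all 6 lists called 2, against 1.09%. Hoxa held 7 of the 12, Hoxb 4, Hoxd 1 and Hoxc 0. Of the regions at gene ends, 11 of 93 (11.8%) were called in at least 4 lists, against 3.49% of all regions. The same held for 4 of 89 inside genes (4.49%), 2 of 66 between genes (3.03%) and 4 of 163 in the flanks (2.45%). These last shares lay near that of all regions.

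**Figure D3:**
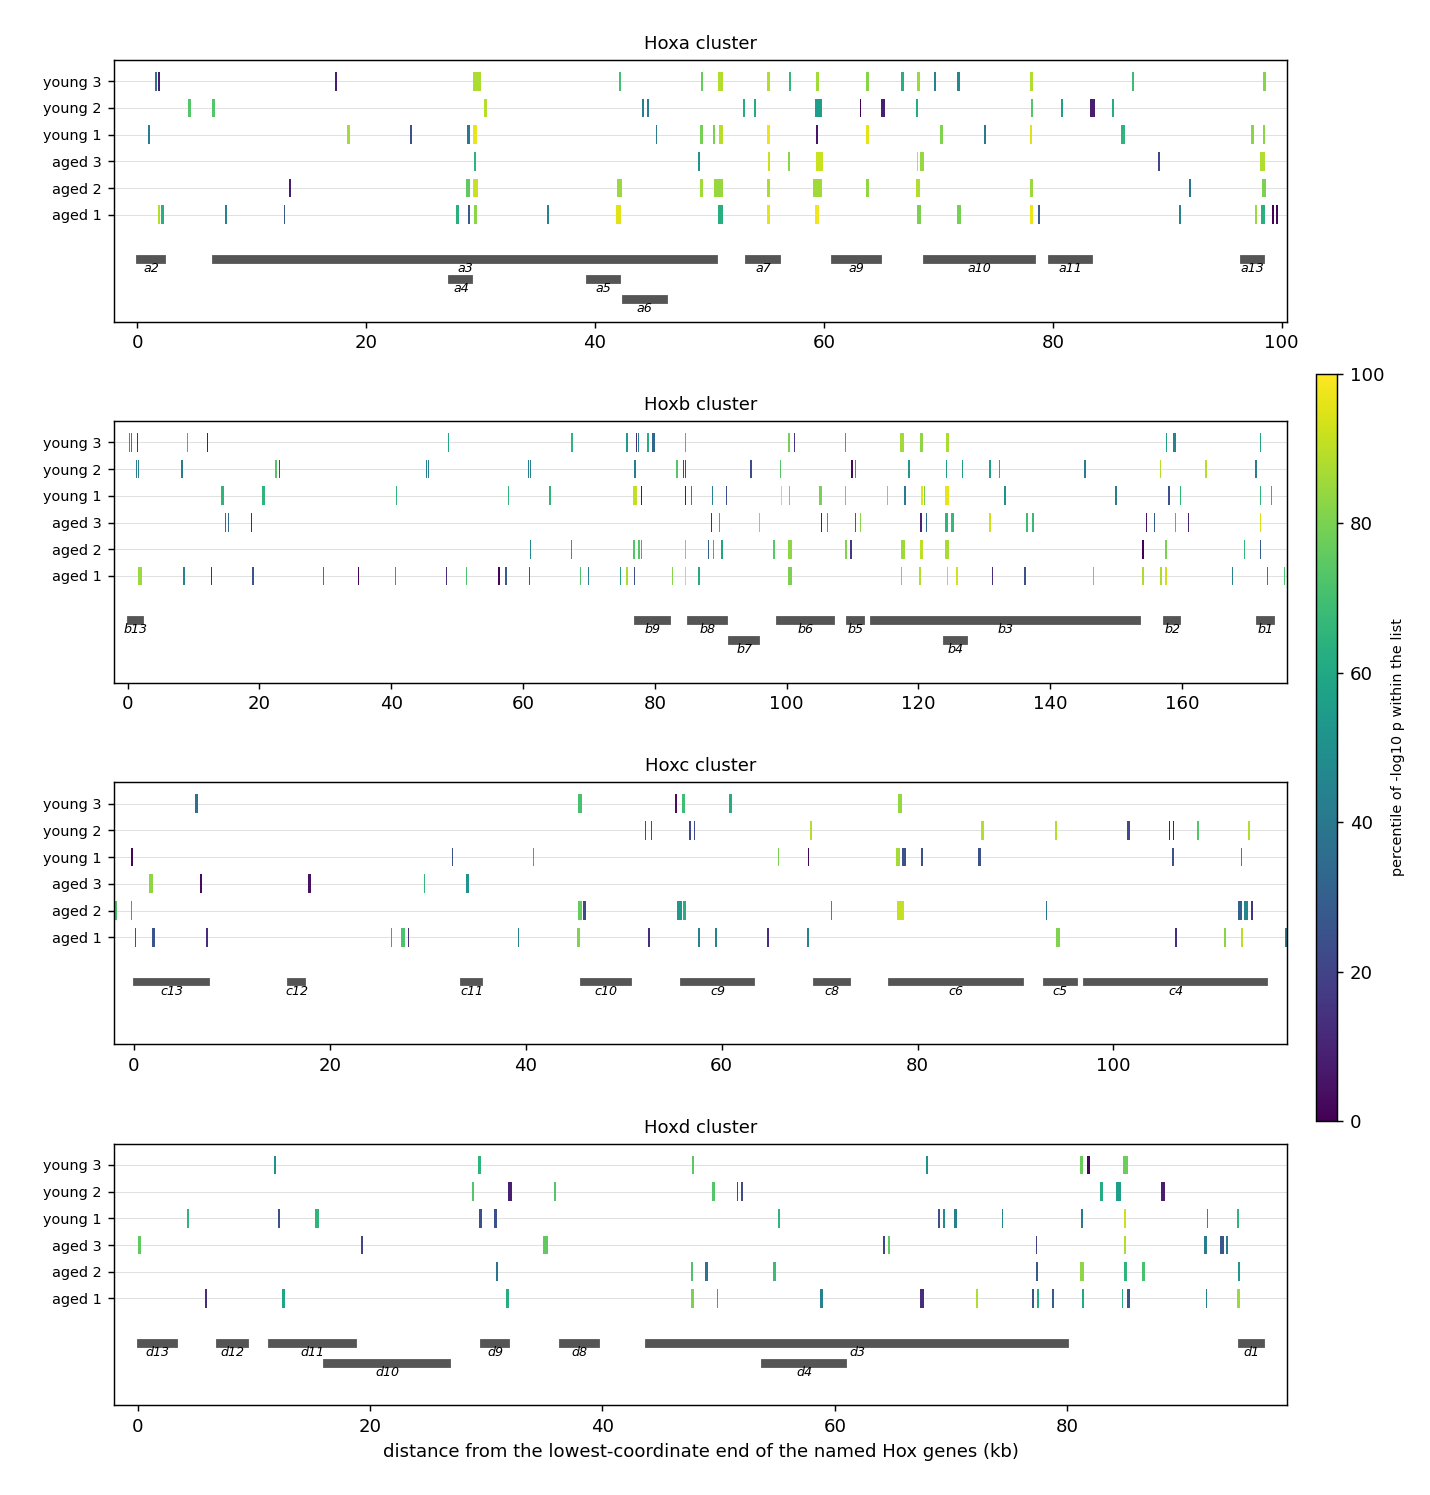
Peaks of the 6 lists (rows, coloured by percentile within the list, 0 to 100) along each cluster, with the named genes as grey bars; the horizontal axis is the distance in kb from the lowest-coordinate end of the named genes, and widths are to scale. Columns of peaks repeated across lists stand out in Hoxa and Hoxb, and Hoxc has none in more than 3 lists.

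The first region called in all 6 lists lay between Hoxa7 and Hoxa9, at chr6:52221468-52222355, 742 bp past the end of Hoxa9 and 2895 bp before the start of Hoxa7. Its percentiles were 97.7, 85.6 and 91.8 in the aged lists and 5.83, 55.6 and 86.0 in the young lists. Young 1 and young 2 were below every aged list, and young 3 fell within their range. In a limma test of rank-based normal quantiles, aged minus young was 1.09 (SE 0.575, adjusted p 0.947). The second, chr11:96318325-96318955, began 58 bp after the start of Hoxb4 and had 89.2, 86.8 and 65.0 in the aged and 96.4, 55.6 and 87.3 in the young lists, with a difference of -0.499 (SE 0.413, adjusted p 0.947). Aged and young values overlapped there. Of the 9582 regions tested by limma, 0 (0%) passed an adjusted p of 0.05, and 368 had an unadjusted p under 0.05.

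The named regions called in 5 lists lay at or near Hoxa4, Hoxa7, both ends of Hoxa10, Hoxa13, Hoxb8, Hoxb9, inside Hoxb3 and in Hoxd. Young 2 was the list without a call at Hoxa4, Hoxa7, Hoxa13, the Hoxb3 region and the Hoxd region. Aged 3 was the list without a call at Hoxb8 and Hoxb9. The Hoxa4 region, chr6:52191747-52192451, ended 44 bp before the start, and its percentiles ran from 64.6 to 96.5. The region at the start of Hoxa10, chr6:52240380-52240726, began 128 bp after it and was missing from aged 3. The region beyond its other end, chr6:52230449-52231131, lay near Mir196b and was missing from young 1. The Hoxb3 region, chr11:96314487-96314976, lay 3291 bp before the start of Hoxb4 at 10.1 to 95.7. In Hoxd the only such region, chr2:74752916-74753590, lay between Hoxd3 and Hoxd1 within the non-coding genes Haglr and Gm14424, at 62.3, 65.0 and 88.2 in the aged lists and 93.0 and 77.5 in young 1 and young 3.

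Away from gene ends, the most shared regions differed between clusters in the number of lists. In Hoxb, chr11:96294486-96295122 inside Hoxb6 was called in 2 lists per age at 79.2 to 83.1, and chr11:96311599-96312370 inside Hoxb3 in 2 per age at 40.7 to 86.3. In Hoxd, chr2:74749296-74749685 in Haglr was called in 2 lists per age at 41.1 to 82.8, and chr2:74715865-74716125 inside Hoxd3 in 2 aged lists and 1 young list at 72.0 to 80.5. The most shared named Hoxa region of this kind, chr6:52211617-52211882 inside Hoxa3, had 1 aged and 2 young calls at 76.7 to 86.1. Next in Hoxa were chr6:52234020-52234363 inside Hoxa10, in 1 list per age, and chr6:52192730-52192933 inside the span of Hoxa3, in young 2 alone. In Hoxc, chr15:103033878-103034340 inside Hoxc4 was called in 2 aged lists and 1 young list at 30.1 to 89.1. A second region inside Hoxc4, chr15:103034505-103035059, and chr15:103015128-103015690 inside Hoxc5 had 1 call at each age.

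Regions called in all 3 aged and 0 young lists numbered 1, against 0.0502% of all regions, and in all 3 young and 0 aged lists 0, against 0.0608%. The 1 region, chr2:74745520-74745840, lay inside Hoxd3 at percentiles 62.0, 27.8 and 20.01. It was lost at a -log10 q of at least 1.3 and among the strongest 100000 peaks of each list.

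Calls were more frequent at starts than at ends. Over 38 genes and 6 lists, 101 of 228 start sides (44.3%) and 43 of 228 end sides (18.9%) were called. For the 17273 genes with a known strand the shares were 56.7% and 18.7%. Start sides outnumbered end sides in 27 genes, the reverse held in 6 (Hoxa6, Hoxa9, Hoxa11, Hoxb3, Hoxb13 and Hoxc12) and 5 were equal. Of the 20 named regions called in at least 4 lists, 9 lay within 1 kb of an annotated Hox start: 3 over it, 4 after it and 2 before it.

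Within the narrower promoter windows, most of the listed Hox promoters were called in 0 lists. RefSeq listed 24 promoters of 22 of the 38 genes, with a median CpG ratio of 0.626 against 0.384 of all 32851. Hoxb was present only with Hoxb1, Hoxb4 and Hoxb8 and Hoxc only with Hoxc4, so the windows stand mainly for Hoxa and Hoxd. Some windows lay inside the gene. The Hoxb8 window, chr11:96281655-96281954, was called in 0 lists, while the start side of the gene was called in 5. Of the 24, 14 were called in 0 lists, 8 in 1 to 3, 2 in at least 4 (Hoxa13 and Hoxa3) and 0 in all 6. Of all promoters, 17.8% were called in all 6 lists and 43.7% in 0. Among the 11174 promoters with a CpG ratio at or above the Hox median, 43.9% were called in all 6 and 8.23% in 0. Between ratios of 0.8 and 1.0, all promoters were called in a mean of 4.73 lists and the 8 Hox promoters in 1.12. Between 0.2 and 0.4, the means were 0.866 for all promoters and 0.833 for 6 Hox promoters. The 34 promoters of other developmental homeobox genes, such as Pax and Lhx genes, had a median CpG ratio of 0.778, with 12 called in 0 lists and 1 in all 6, and the difference between these sets was not tested. Hoxc4, called at neither end of the annotated gene, had a promoter inside it that was called in 2 aged lists and 1 young list.

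**Figure D4:**
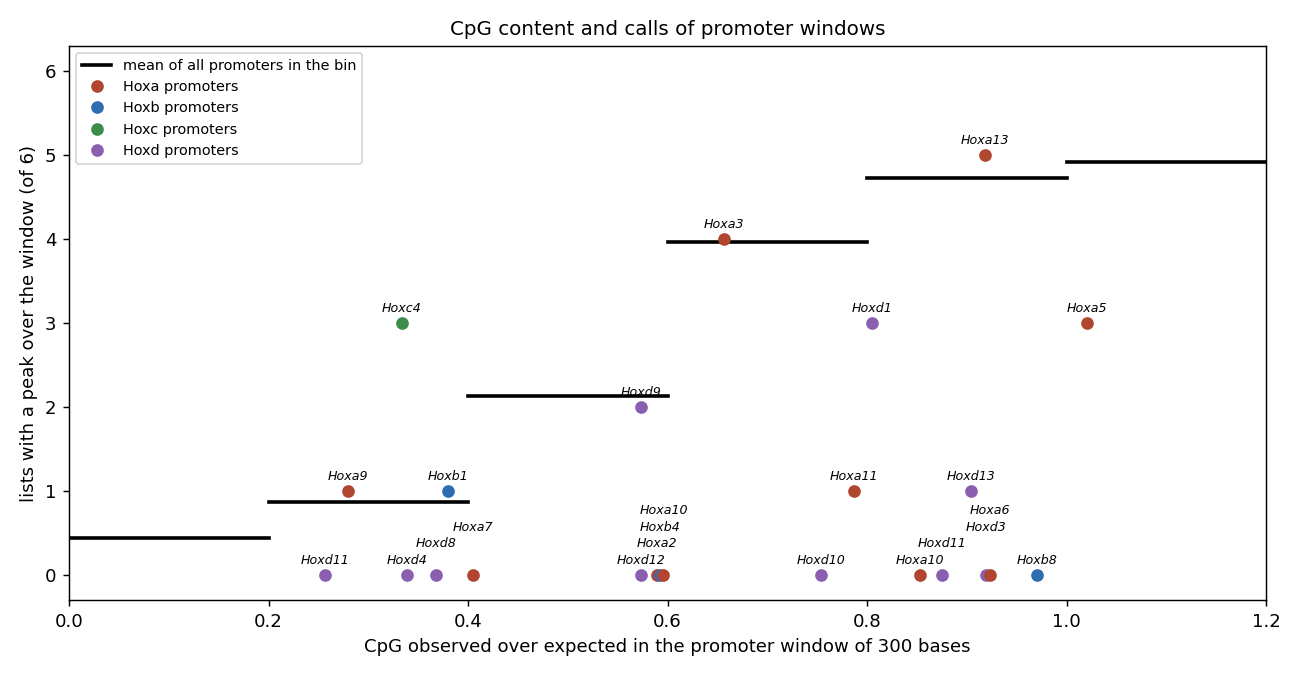
CpG ratio of the 24 Hox promoter windows (horizontal axis) against the number of lists with a peak over the window (vertical axis, 0 to 6), coloured by cluster; black bars are means of all promoters in bins of CpG ratio. Hoxa13 and Hoxa3 lie at the bars of their bins, and 14 Hox promoters lie at 0.

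Short motifs were counted on both strands of these 24 windows. The CCAAT box (CCAAT) was in 15, or 62.5%, against 37.4% of all promoters, and the GC box (GGGCGG) in 10, or 41.7%, against 35.7%. The Hoxa6 window held 5 GC boxes and the Hoxa13 window 6. The GATA motif AGATAA and the ETS motif CNGGAAGT were in 0 of 24, against 11.2% and 9.53% of all promoters. The TATA box (TATAAA) was in 16.7% against 13.6%, and the E-box (CANGTG) in 41.7% against 44.9%. The homeodomain core TAATTA, the posterior Hox and Cdx core TTTATNG and the Hox with Pbx motif TGATTNAT were each in 8.33%. Of all promoters, 5.29, 10.9 and 3.22% held them. Median GC content was 57.7% in the Hox windows and 52.7% in all promoters, and no motif difference was tested. These letters mark matches only and say nothing of factor binding.

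Other genes of the pathway came from lists set beside the Hox genes. Of 9 cofactors that bind DNA with Hox proteins, 6 were called in all 6 lists, among them Meis1 and Pknox1, while Meis2 had calls in 2 aged lists alone. Of 15 regulators of Hox transcription, 11 were called in all 6, among them Kmt2a, Men1, Ezh2, Suz12 and Ctcf, while the Hox activator Cdx2 was called in 0 aged and 2 young lists. Of 13 flanking genes, 12 matched the gene table and 7 of these were called in all 6. As shares, 66.7% of the cofactors, 73.3% of the regulators and 58.3% of the flanking genes were called in all 6 lists, against 35.1% of all protein-coding genes. Of 36 other developmental homeobox genes, 4 were called in all 6 lists (Msx1, Dlx5, Alx1 and Nkx2-5), or 11.1%. This stands beside 13.2% of the Hox genes, both below the share of all genes.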

How the data were processed

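Peak lists of 6 ATAC-seq samples on mm10 were used. Per the submitters' processing notes, the tools were Bowtie2, SAMtools, Picard and MACS2; their versions and roles and any shift of reads are not given in the sources used here. Each deposited list gives per peak a score, a fold enrichment over the background of its own sample (a ratio), a -log10 p and a -log10 q, in the MACS2 layout. The deposited score was found to be the -log10 p times 10, without decimals, up to a cap. These values are the authors' and depend on each sample's depth, which is unknown, so they served only to rank or filter peaks within a list.

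Rows with the same interval were merged to distinct peaks on chromosomes 1 to 19 and X. Peaks overlapping by at least 1 bp across lists were merged to regions, and percentiles are mid-ranks of the -log10 p. Gene spans, promoters and miRNAs came from RefSeq tables on GRCm38.p6. Strand came from promoter entries for single genes and from the cluster for Hox genes. Regions called in all 6 lists were compared between ages on normal quantiles of their ranks with limma 3.58.1 (R 4.3.3) and Benjamini-Hochberg adjustment. The test was also run on simulated data, with the outcome not given here. Other values carry no test, and 3 lists against 3 cannot give an exact permutation p below 0.1. Python 3.11.15 and pandas 2.3.3 did the rest.

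The members, gene lists and tests were chosen with earlier results of these data known. Every one of the 38 genes is named, with values per list for those called in all 6 lists, those differing by 2 or more lists between ages and the strongest of each cluster by mean percentile. Named regions are, per cluster, up to 3 between or inside genes called in the most lists (highest mean percentile first) and any called in all 3 lists of 1 age and 0 of the other. Other genes' values, and the regions at gene ends, were chosen after their values were seen. The 1 further gene that the rule matches is not reported here. Alternatives were windows of 500 bp and 2.5 kb, gene starts only, peak summits, a -log10 q of at least 1.3, the strongest 100000 peaks of each list, no flanks, 50% cover, other rank scales, a replicate block and leaving out each list.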

Additional observations from a re-analysis of the deposited data

How the results depend on the processing

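The count of 5 Hox genes called in all 6 lists moved to 2 with 500 bp windows, 10 with 2.5 kb windows, 1 at gene starts only, 2 at a -log10 q of at least 1.3 (Hoxa7 and Hoxa10) and 2 among the strongest 100000 peaks (Hoxa10 and Hoxb2), and was 4 with summits inside the window. Leaving out 1 list gave 5 to 9, with 9 without aged 3. The regions called in 3 aged and 0 young lists went from 1 to 0 at the q limit and among the strongest 100000 peaks, and to between 1 and 4 without 1 list (4 without aged 3, 3 without aged 2 and 2 without aged 1). Those called in 3 young and 0 aged lists went from 0 to between 0 and 4 (4 without young 3, 2 without young 2). A call at 1 age then needs only 2 lists, so these counts rise by construction.

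Aged minus young in Hox genes called (0.667) ranged from -2 with 2.5 kb windows to 4.33 at the q limit, with either sign. It stayed within 1 SD of the main value throughout, taking the SD pooled over both ages (3.79 genes). At the q limit the calls by cluster were these: Hoxa 8, 8, 5, 5, 3 and 9 genes in aged 1 to 3 and young 1 to 3, Hoxb 6, 7, 5, 3, 2 and 7, Hoxc 1, 5, 0, 1, 1 and 3, Hoxd 2, 3, 1, 0, 2 and 2. The difference in covered length kept within 1 pooled SD (0.669 percentage points) of -0.0788 in all 9 alternatives. Same-numbered samples did not deviate together (correlations 0.038, -0.161 and -0.066), and with the replicate block limma called 0 Hox regions (351 regions with an unadjusted p under 0.05, against 368). Other rank settings also called 0 Hox regions; at the q limit, among the strongest 100000 peaks and with 50% cover no Hox region was left to test. Depth is unknown, so an uncalled gene is not shown to be closed.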
